A study of Mus musculus with 2 samples.

Results

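Peaks from CUT&Tag with a Rac1 antibody were described at 8 transcription factor genes of the mouse retina: Yy1, Ctcf, Sp1, Creb1, Atf4, Stat3, Mef2a and Thrb. Rac1 is a GTPase best known for its control of the actin cytoskeleton. The genes were chosen by name, with earlier results of these lists known, from factor genes that carried a peak in both retinas, so their presence in both lists is a description and was not tested. All peaks that the authors assigned to one of these genes were taken. There were 8 of the 3078 peaks of the control list, 1 per gene. From the list of chronic ocular hypertension (COH) there were 8 of 1711 peaks, also 1 per gene. Of all genes named in a list, 95.3% had 1 peak in control and 94.6% in COH. The 8 genes were among the 1029 named in both lists. All 8 pairs overlapped. Of 21900 protein-coding genes, 10.8% were named in the control list, 5.38% in the COH list and 3.53% in both, 3.36% with peaks that overlapped. The nearest edge of all 8 genes' peaks lay within 1000 bp of the gene's start in each list, as did those of 8.37% of protein-coding genes in control, 3.8% in COH and 2.57% in both. Among protein-coding genes that carried a peak, the shares were 77.6% in control, 70.6% in COH and, for genes with a peak in both lists, 72.9% in both. Of the genes in both lists, 95.3% had peaks that overlapped. Retinal nuclei were profiled by CUT&Tag, where the Tn5 transposase is tethered to chromatin by an antibody and inserts adapters around the bound site. One library came from untreated control retina and the other from retina at 1 week of COH, a model of glaucoma with raised pressure in the eye. Both came from wild-type C57BL/6 mice 7 weeks old and were made with the same Rac1 antibody. The sources used here name neither the way the pressure was raised nor the number of eyes pooled, and no library of a control antibody was analysed here. With 1 library in each group there is no replicate spread, and no difference between the retinas was tested.

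The genes encode factors of different kinds. Yy1, Ctcf and Sp1 are zinc finger proteins found in nearly all cells: Yy1 binds promoters and enhancers and can activate or repress, Ctcf anchors chromatin loops together with cohesin, and Sp1 binds the GC boxes of many housekeeping promoters. The others are better known as endpoints of signals. Creb1 is phosphorylated downstream of cyclic AMP and calcium, Atf4 is translated when the integrated stress response is active, and Stat3 is phosphorylated by Janus kinases after cytokines such as CNTF. Mef2a is a MADS-box factor governed by calcium through calcineurin and histone deacetylases, and Thrb encodes a thyroid hormone receptor whose cone-specific isoform shapes opsin choice. A peak in this assay is a place of Rac1 antibody signal at the gene and is no measure of its expression or of the factor's own binding. In these lists 0 of 6 rod and 0 of 6 ganglion cell markers carried a peak in either retina. Of 6 cone markers only Thrb had a peak, and its count was fixed by its choice as a gene present in both lists. Thrb is 377825 bp long in the lists, and its 2 RefSeq starts lie 379138 and 58454 bases from the gene's end. By that length its peaks lay near the farther start, and which isoform they belong to was not tested. Among 6 markers of Müller glia Glul had a control peak and Aqp4 and Sox9 had COH peaks. Of all protein-coding genes, 10.8% were named in the control list and 5.38% in the COH list.

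The promoter windows are shown first, since 7 of the 8 genes had their peaks across the annotated start. RefSeq windows of GRCm38.p6 reach from 250 bases before a gene's start to 50 after it, and 9 were matched by symbol to the 8 genes, Thrb having 2. Yy1 is shown for its GC boxes (GGGCGG on either strand, in capitals) at chr12:108793047-108793296 on the plus strand. Sp1 is shown for the same motif, the one its own protein binds, at chr15:102406066-102406315 on the plus strand. Atf4 is shown for its CCAAT boxes, in capitals, at chr15:80254934-80255183 on the plus strand. Mef2a is shown for a Mef2 site, in capitals, at chr7:67372851-67373108 on the minus strand. Thrb is shown at its outer start for the core element of thyroid hormone receptors (AGGTCA, in capitals) at chr14:17660710-17660959 on the plus strand. Each sequence is written 5′ to 3′ along the gene and ends at the base before the start, except that of Mef2a, which goes on to the end of the site.
Yy1: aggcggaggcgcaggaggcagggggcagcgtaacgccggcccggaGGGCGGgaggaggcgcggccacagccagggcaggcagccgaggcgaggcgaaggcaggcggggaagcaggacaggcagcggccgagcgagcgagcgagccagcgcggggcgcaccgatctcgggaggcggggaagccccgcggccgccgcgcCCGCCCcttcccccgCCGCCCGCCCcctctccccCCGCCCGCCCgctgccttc
Sp1: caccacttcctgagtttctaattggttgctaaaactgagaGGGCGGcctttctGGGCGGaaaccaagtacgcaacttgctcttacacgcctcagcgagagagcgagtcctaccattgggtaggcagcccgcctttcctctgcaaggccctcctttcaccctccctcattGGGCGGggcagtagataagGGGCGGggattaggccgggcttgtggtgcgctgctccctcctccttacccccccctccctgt
Atf4: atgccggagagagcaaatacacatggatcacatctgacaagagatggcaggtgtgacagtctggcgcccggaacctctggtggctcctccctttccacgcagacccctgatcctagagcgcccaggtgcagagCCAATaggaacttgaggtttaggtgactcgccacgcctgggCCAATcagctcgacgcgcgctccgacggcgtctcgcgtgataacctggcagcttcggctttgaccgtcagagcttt
Mef2a: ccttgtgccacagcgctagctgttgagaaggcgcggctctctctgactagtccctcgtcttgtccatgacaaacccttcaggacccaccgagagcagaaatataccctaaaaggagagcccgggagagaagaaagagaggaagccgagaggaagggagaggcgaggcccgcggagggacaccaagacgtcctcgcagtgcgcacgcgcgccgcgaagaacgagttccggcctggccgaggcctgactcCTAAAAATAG
Thrb: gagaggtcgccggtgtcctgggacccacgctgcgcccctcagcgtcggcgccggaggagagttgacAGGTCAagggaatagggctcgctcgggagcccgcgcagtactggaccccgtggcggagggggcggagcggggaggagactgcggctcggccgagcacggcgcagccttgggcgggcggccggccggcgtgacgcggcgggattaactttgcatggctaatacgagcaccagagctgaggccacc

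Of the 8 genes, 3 held the motif searched for their own protein: Sp1, Mef2a and Thrb. A GC box lay in 6 of the 9 windows, those of Yy1, Ctcf, Sp1, Creb1, Stat3 and the outer start of Thrb. All windows of protein-coding genes held one in 46.2% of cases, and the windows of other genes with overlapping peaks near the start in 75.3%. Yy1 had 7 matches, 6 of them before the start, among them pairs of boxes that overlap each other. Sp1 had 4, all before the start and all on the plus strand. The Mef2 site was searched as CTA and TAG with 4 bases between them, and the Mef2a window held it as CTAAAAATAG at bases -2 to 8 from the start. That pattern was in 3.47% of all windows and in 2.23% of those of other genes with overlapping peaks near the start. The thyroid hormone receptor element lay at bases -184 to -179 of the outer Thrb window, and it was in 14.7% of all windows and 13.4% of those of the other genes. The motifs searched for Creb1 (TGACGTCA), Stat3 (TTCNNNGAA), Atf4 (TGATGNAA) and Yy1 (AAGATGG) were in none of the 9 windows. They were in 2.23%, 7.69%, 3.60% and 6.24% of all windows. The windows of the other genes held them in 2.74%, 4.97%, 1.88% and 6.16% of cases. With shares this low, absence from 9 windows tells nothing about the members. The shorter core of the Creb1 motif, TGACG, was in the windows of Atf4, Ctcf, Sp1 and Thrb, in 23.6% of all windows and in 36.1% of those of the other genes. A Ctcf core (AGGGGGC) was in 2 of the 9 windows, those of Yy1 and the outer start of Thrb, in 12.9% of all windows and in 21.7% of those of the other genes. In Thrb it overlapped a GC box, as did 1 of the 2 matches in Yy1. CCAAT lay in the windows of Atf4, Sp1 and Stat3, with 2, 3 and 2 matches, in 38.2% of all windows and in 39.2% of those of the other genes. The inner Thrb window, which lies farther into the gene, was the only one with a TATA box (TATAAA, 12.6% of all windows and 5.48% of those of the other genes) and an E-box (CACGTG, 7.84% and 12.3%).

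By composition most of the windows were of the CpG-rich kind. G and C made up 81.0% of the Yy1 window, more than in 99.1% of all protein-coding windows, and 75.3% of the Ctcf window. The ratio of observed to expected CpG was highest in Ctcf, at 1.16 with 47 CpG in the 300 bases, above 98.8% of all windows. Mef2a had a ratio of 0.929, Creb1 0.876, Yy1 0.856, Atf4 0.844, Sp1 0.677 and Stat3 0.545. The 2 starts of Thrb differed widely, with 72.7% G and C and a CpG ratio of 0.946 at the outer start and 46.0% and 0.255 at the inner one. Over the 9 windows the median G and C share was 62.3% and the median CpG ratio 0.856. Other genes with overlapping peaks near the start had medians of 67.0% and 0.816, and all protein-coding windows 56.3% and 0.567.

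**Figure D1:**
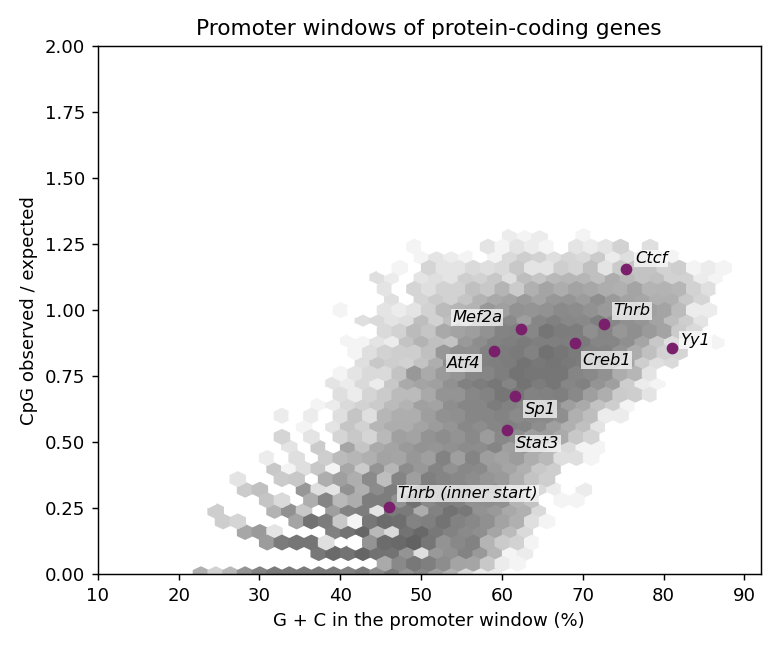
Share of G and C (x axis, percent) and ratio of observed to expected CpG (y axis) in the promoter windows of protein-coding genes, with darker grey hexagons holding more windows on a log scale and coloured points the 9 windows of the 8 genes. The Ctcf window is the highest of the coloured points at 1.16, the inner start of Thrb the lowest at 0.255, and 1 window above a ratio of 2 lies outside the plot.

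Peaks of 7 genes spanned the annotated transcription start site (TSS) in both retinas, and only those of Thrb lay wholly inside the gene. A TSS was spanned by 39.2% of all control peaks and 30.6% of all COH peaks, and 30.9% of the 1029 genes named in both lists had such a peak in each. Distances are given along the gene, with negative values upstream, in the coordinates of the lists. The submitters' processing notes name the build mm9, but that build was not settled here: the lists give Thrb the minus strand and GRCm38.p6 gives it the plus strand. The RefSeq windows were therefore placed on the peaks by no coordinate, and only gene lengths were compared. From the window's start to the far end of the gene, RefSeq has 141696 bases for Mef2a, the same as the gene length in the lists. For Atf4 the 2 lengths differed by 4 bases, for Ctcf by 30, for Creb1 by 159, for Sp1 by 173 and for Yy1 by 324. For Thrb they differed by 1313 bases and for Stat3 by 1708, so the peaks of these genes may sit elsewhere relative to the window.

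Yy1 had the strongest peaks of the 8 by pileup, fold and -log10 q in each list. Its control peak lay at 108758400 to 108759204 on chromosome 12, from -499 to 305 bp, and its COH peak at 108758604 to 108759117, from -295 to 218 bp. The pileup, the height of stacked fragments at the summit in the authors' lists, was 34 in control (exact 95% Poisson interval 23.5 to 47.5) and 36 in COH (25.2 to 49.8). Fold, the authors' enrichment over background, was 6.48 and 8.42, and -log10 q was 14.9 and 20.3. Both summits fell on the same base, 108758908, at 9 bp past the TSS. A shared summit base was found in 1.89% of the 582 other overlapping pairs within 1000 bp of a TSS. The COH peak lay wholly inside the control peak and covered 63.9% of it.

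The Ctcf peaks leaned into the gene and had the largest ratio of fold between the retinas. They lay at 106363129 to 106363968 on chromosome 8 in control, from -71 to 768 bp, and at 106363116 to 106363557 in COH, from -84 to 357 bp. The pileup was 23 (14.6 to 34.5) in control and 25 (16.2 to 36.9) in COH, so the 2 values nearly coincide. Fold was 5.25 and 7.94, a ratio of COH over control of 1.51 that exceeded 96.2% of the 582 other pairs. The background implied by pileup and fold was 3.57 fragments in control against 2.28 in COH, which gives a ratio of 0.637. The summits lay at 108 and 159 bp past the TSS. In RefSeq the long noncoding RNA genes Gm5914 and Gm33578 and the pseudogene Gm5915 overlap the Ctcf gene.

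Sp1 had the longest peaks and was 1 of 2 genes whose COH peak was longer. The control peak at 102313816 to 102314919 on chromosome 15 was 1105 bp long and the COH peak at 102313921 to 102315139 was 1220 bp, against list medians of 426 and 401 bp. They reached from -762 to 341 bp and from -657 to 561 bp, and the summit lay at 78 bp in control and at -56 bp in COH. The pileup was 25 (16.2 to 36.9) in control and 23 (14.6 to 34.5) in COH, and fold was 4.62 and 5.33. In fold the Sp1 peaks stood below the median of their lists, 5.24 and 5.45, while their pileups were above the medians of 17 and 16.

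Atf4, a short gene of 2358 bp in the lists, had peaks that spanned the start and lay mostly inside the gene. The control peak at 80139170 to 80139899 on chromosome 15 ran from -215 to 514 bp and the COH peak at 80139329 to 80140077 from -56 to 692 bp. The pileup was 26 (17 to 38.1) in control and 28 (18.6 to 40.5) in COH. Fold was 4.73, rank 2090 of 3078, in control and 6.26, rank 554 of 1711, in COH. The implied background of 4.71 was the highest of the 8 in control, and it was 3.64 in COH. The summits lay at 296 and 135 bp past the TSS.

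Stat3 had the same pileup in both retinas. It was 18 (10.7 to 28.4) in each, and fold was 5.38 in control against 5.93 in COH. On chromosome 11 the control peak ran from 100830077 to 100830791, or from -425 to 289 bp, and the COH peak, wholly inside it, from 100830147 to 100830565, or from -199 to 219 bp. The summits were 10 bp apart, at 9 and 19 bp past the TSS, and 10.7% of the other pairs had summits within 10 bp. The long noncoding RNA gene Gm46295 overlaps the gene in RefSeq.

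Creb1 and Thrb were the members with a lower pileup and a lower fold in COH. The Creb1 pileup was 19 (11.4 to 29.7) in control against 14 (7.65 to 23.5) in COH, and its fold was 5.40 against 5.04. It lay at 64571561 to 64572193 on chromosome 1, from -243 to 389 bp, and in COH at 64571596 to 64571979, from -208 to 175 bp. Its summit was the only control summit upstream of the TSS, at -158 bp, while the COH summit lay at 118 bp, a gap of 276 bp. The Thrb pileup was 21 (13.0 to 32.1) in control against 14 (7.65 to 23.5) in COH, and its fold was 5.63 against 4.81. The authors annotated it to the 5' UTR, at 4808391 to 4809132 on chromosome 14 in control and 4808533 to 4808881 in COH. Its nearer edge lay 303 bp into the gene in control and 554 bp in COH. The summits, at 412 and 823 bp, were 411 bp apart, farther than in 94.7% of the other pairs, and the COH peak covered 47.0% of the control peak. In RefSeq the protein-coding gene LOC115488350 overlaps the Thrb gene, and its place relative to the peaks was not settled.

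Mef2a had the lowest control pileup of the 8 and the largest ratio of pileups. The pileup was 16 (9.15 to 26.0) in control against 20 (12.2 to 30.9) in COH, for a ratio of 1.25 (exact 95% interval 0.615 to 2.58). Fold was 4.54 in control, rank 2327 of 3078, and 5.69 in COH, rank 744 of 1711. Its control -log10 q of 4.54 was the lowest of the 8 there, and that of Thrb, 4.22, the lowest in COH; the lists begin at 2.0 and 1.82. The peaks lay at 67022279 to 67023146 on chromosome 7, from -540 to 327 bp, and at 67022267 to 67022862, from -256 to 339 bp. The summits lay at 163 and 51 bp past the TSS. With the start of the RefSeq window taken as the same base, the Mef2 site printed above lies inside both peaks. Placed in the same way, the printed GC boxes of Yy1 and Sp1 also lie inside both peaks. The printed CCAAT boxes of Atf4 lie at bases -117 to -113 and -76 to -72. These boxes are inside the control peak but upstream of the COH peak, which begins at -56 bp. The printed element of Thrb lies upstream of both its peaks. Only Mef2a had equal gene lengths in RefSeq and the lists, so the placements for the other genes were not settled.

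**Figure D2:**
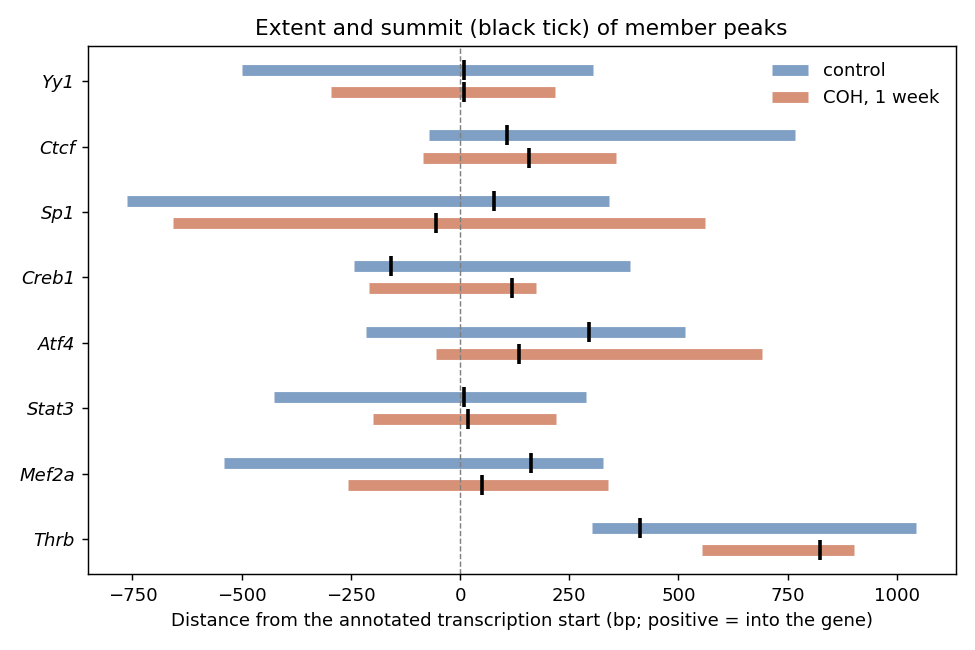
Extent of the peak at each gene (bars) and its summit (black tick) as distance from the annotated TSS in bp, positive into the gene, for control (blue) and COH at 1 week (orange). The Yy1 ticks coincide at 9 bp, the Sp1 bars are the longest, and the Thrb bars start at 303 and 554 bp.

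The members' peaks were longer than the list median in control, and most were shorter in COH. Most other pairs near a TSS showed the same on each count. In control all 8 were longer than the list median, with a range of 634 to 1105 bp and a median of 774.5 bp. In COH 6 were longer than the median there, with a range of 350 to 1220 bp and a median of 479 bp. The 582 other pairs near a TSS had medians of 576.5 bp and 457 bp. Their first quartile in control, 435.75 bp, was also above the control list median of 426 bp. The COH peak was the shorter of the pair for 6 of the 8 members and for 68.7% of the other pairs, and it lay wholly inside the control peak for 4 members and 38.0% of the others. Of the 7 members over the TSS, 6 had a summit downstream of it in control and 6 in COH. The same held for 54.1% and 50.2% of the other peaks over a TSS. The median gap between summits was 123 bp for the members and 107 bp for the other pairs.

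The pileups of the 2 retinas are set side by side here with no test. Pileup was higher in COH for Yy1, Ctcf, Atf4 and Mef2a, equal for Stat3 and lower for Sp1, Creb1 and Thrb, that is 4 higher of 8. Among the other pairs 18.6% were higher and 6.19% equal. The median ratio of COH over control was 1.03 for the members and 0.822 for the others. The exact 95% interval of the ratio held 1 for all 8 members, also after division by 0.852, the median over all 1060 overlapping pairs. Fold was higher in COH for 6 of 8 members and for 49.8% of the others, with median ratios of 1.20 and 0.999. The scaling of the pileup is not stated, so no change is read from these values.

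**Figure D3:**
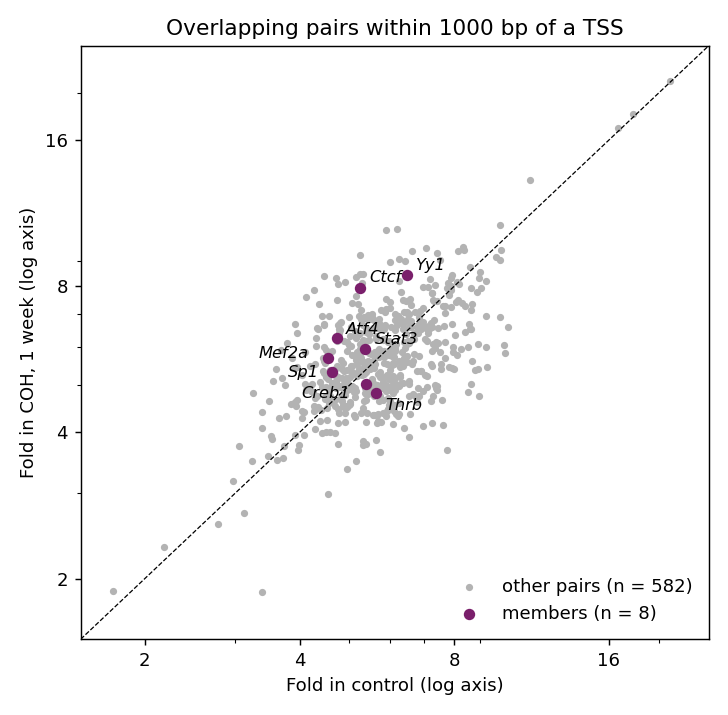
Fold of overlapping peaks within 1000 bp of a TSS in control (x axis) and COH (y axis), both log axes, with the 8 members in colour, the 582 other pairs in grey and the dashed line marking equal values. Creb1 and Thrb lie below the line and the other 6 members above it, Ctcf at 5.25 and 7.94.

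The background implied by pileup and fold was lower in COH for all 8 members and for 93.1% of the other pairs near a TSS. The ratio of COH over control ran from 0.637 for Ctcf to 0.979 for Mef2a, with a median of 0.764 for the members and 0.767 for the others. The highest backgrounds in control, 4.71 at Atf4, 4.63 at Sp1 and 4.40 at Yy1, stood above the median of 3.03 of the other pairs. The lowest in control, 2.53, was at Stat3.

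**Figure D4:**
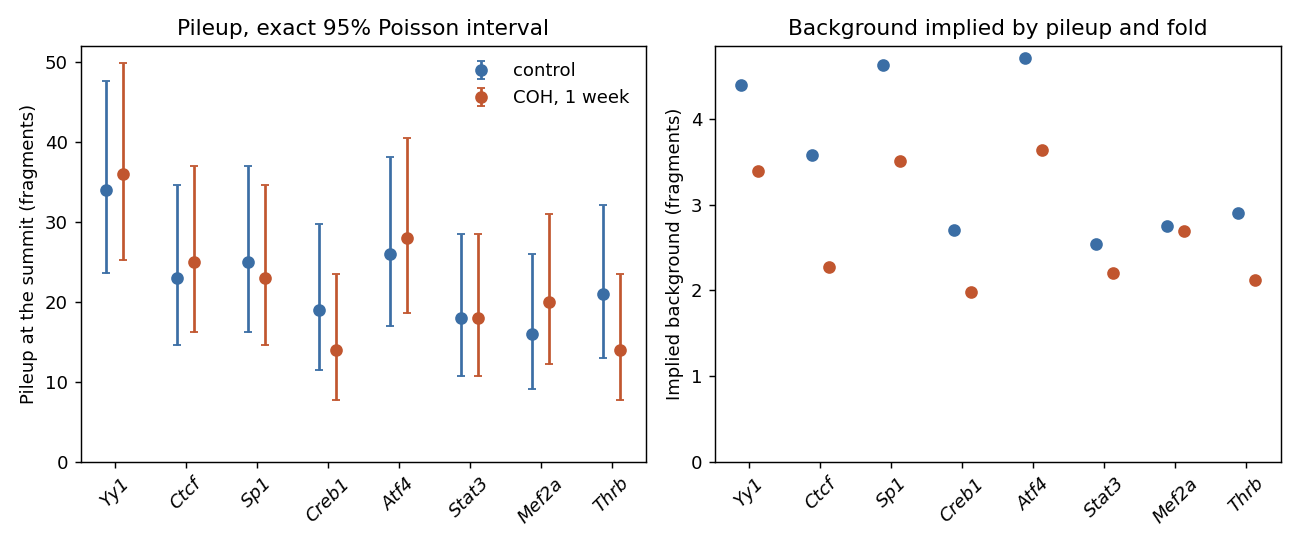
Pileup at the summit with exact 95% Poisson intervals (left) and the background implied by pileup and fold (right), both in fragments, for each gene in control (blue) and COH at 1 week (orange). The intervals of the retinas overlap for each gene, from 16 against 20 at Mef2a to 34 against 36 at Yy1, while all 8 backgrounds are lower in COH.

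The nearest counterpart of each member in strength is described here, with no reference distance for other genes beside it. Likeness was measured over 4 values, the log2 pileup and log2 fold in the 2 libraries, as the distance to each other gene with overlapping peaks. The nearest gene was Hnrnph3 for Yy1 (distance 0.174), Rab1a for Ctcf (0.204), Chd4 for Sp1 (0.0943) and Slc25a28 for Creb1 (0.0660). It was Mex3b for Atf4 (0.0764), Ensa for Stat3 (0.128), Pigv for Mef2a (0.105) and Glcci1 for Thrb (0.0948). The Chd4 peak is distal, at -6966 bp from the TSS. Other peaks listed within 200 kb of a member's TSS are given next, with no rate for other genes beside them. For Sp1 the peak of Tarbp2, at 112354 bp, was found in both lists, that of Pcbp2, at 64351 bp, in COH and that of Rarg in control. The other neighbours, all in control, were Gm48048 at -34407 bp from Yy1, Ccnyl1 for Creb1 and Ranbp10 for Ctcf, and Atf4, Stat3, Mef2a and Thrb had none.

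Related genes were counted from 8 lists of family members and pathway partners, written with earlier results of these lists known. Without the 8 members they hold 169 genes, some in more than 1 list. Of these, 45 (26.6%) had a control peak, 24 (14.2%) a COH peak and 16 both, and for those 16 the peaks overlapped. The shares of all protein-coding genes were 10.8%, 5.38% and 3.53%. Bounds given with a share are those of an exact binomial interval at 95%, for counting error alone, and the lists overlap, so their counts are not independent.

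Sp and Klf factors, zinc finger proteins that share GC-rich motifs, had peaks in like number in the 2 retinas. Control peaks were listed for 7 of 25 others (28%, 12.1 to 49.4) and COH peaks for 8 (32.0%, 15.0 to 53.5), with 3 in both. Thus 3 of the 8 genes with a COH peak also had a control peak, against 772 of the 1179 protein-coding genes named in the COH list. Sp4, an activator in neurons, had promoter peaks in both, with pileups of 33 and 17. Also in both were Klf12, with distal peaks and folds of 8.59 and 6.78, and Klf13, with promoter peaks and folds of 3.23 and 3.48. Promoter peaks of Klf3, Klf7, a factor of axon growth, Klf10 and Klf16 were listed in COH only, with folds of 5.17, 5.03, 4.58 and 4.30, and that of Klf2, a flow-induced endothelial factor, in control only, with a fold of 5.48.

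Among CREB and ATF factors with their coactivators, all 5 genes with a COH peak also had a control peak. The same held for 772 of the 1179 protein-coding genes named in the COH list. Control peaks were listed for 8 of 22 others (36.4%, 17.2 to 59.3) and COH peaks for 5 (22.7%, 7.82 to 45.4). The histone acetyltransferases Ep300 and Crebbp, which Creb1 recruits, had promoter peaks, with control pileups of 31 and 20 and COH pileups of 23 and 20. Atf7 had the highest folds, 8.63 and 7.94. Crebl2 had promoter peaks in both, Crebrf intronic peaks within 1000 bp of the TSS in both, and Creb3l2 a control promoter peak.

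Genes of the integrated stress response around Atf4 numbered 23 others, with control peaks at 6 (26.1%, 10.2 to 48.4) and COH peaks at 3 (13.0%, 2.78 to 33.6). Ddit4, an inhibitor of mTOR, had promoter peaks in both with pileups of 24 and 25 and folds of 3.68 and 5.90. Ppp1r15b, a subunit of the phosphatase that resets the response, also had a peak in both, with folds of 5.74 and 5.33. Of the eIF2 kinases, Eif2ak4 had a control peak (fold 5.81) and Eif2ak3, the kinase of endoplasmic reticulum stress, a COH peak (4.16). The Eif2ak3 peak was near the floor of its list, with a pileup of 10, a -log10 q of 2.38 and fold rank 1547 of 1711. That list begins at a pileup of 8 and a -log10 q of 1.82. Of all protein-coding genes, 772 were named in both lists, against 2363 in control and 1179 in COH. Gadd45a (4.52) and Ddit3 (3.07), which encodes CHOP, had control peaks.

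JAK-STAT genes around Stat3 numbered 29 others, with control peaks at 6 (20.7%, 7.99 to 39.7) and COH peaks at 2 (6.90%, 0.846 to 22.8). Socs5, a suppressor of cytokine signalling, was the one gene in both, with a pileup of 28 in each and folds of 5.25 and 6.09. Il6st, the shared receptor subunit gp130, had a control promoter peak (fold 4.95), as did Socs4 (7.16), and Jak2 had a COH promoter peak (5.08). The control peaks of Pias3 (4.59) and of Lifr (4.43) were annotated to 5' UTRs, that of Lifr at 38901 bp from its TSS.

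Mef2 factors and their regulators had 5 of 15 others (33.3%, 11.8 to 61.6) with a control peak and 3 (20.0%, 4.33 to 48.1) with a COH peak. The calcineurin subunits Ppp3ca and Ppp3r1 had promoter peaks in both retinas, with folds of 4.62 and 3.91 in control and 5.87 and 4.61 in COH. Hdac4, a class IIa deacetylase that represses Mef2 targets, had peaks annotated to a 5' UTR in both, with folds of 6.16 and 6.15, the control peak at 14715 bp from the TSS. Mef2d (5.85) and Hdac7 (3.95) had control peaks, both over 1000 bp from the TSS.

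Ctcf and cohesin genes had the highest control share, 7 of 17 others (41.2%, 18.4 to 67.1), and 3 (17.6%, 3.80 to 43.4) had a COH peak. Maz, a zinc finger factor that works with Ctcf at insulators, had promoter peaks with pileups of 41 and 71 and folds of 5.24 and 9.28 in control and COH. Zfp143 had peaks in both, with folds of 6.53 and 5.03. The cohesin ring subunit Smc3 (6.99) and the loaders Mau2 (5.48) and Nipbl (4.27) had control promoter peaks, and Stag2 (6.54) an exonic COH peak.

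Yy1 and INO80 genes and the partners of thyroid hormone receptors had control peaks only. Of 16 others in the first list, 3 (18.8%, 4.05 to 45.6) had one: Ino80, the remodelling ATPase (fold 6.27), Rybp, which links Yy1 to Polycomb (4.80), and Uchl5, at 84873 bp from its TSS (6.19). Of 24 others in the second, 3 (12.5%, 2.66 to 32.4) had one: Tbl1x, a corepressor subunit (5.11), the retinoid receptor Rxrb (3.96) and the coactivator Ncoa2 (4.61). In COH the counts were 0 of 16 and 0 of 24, with intervals that reach 20.6% and 14.2%, so they hold the 5.38% of all protein-coding genes.

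**Figure D5:**
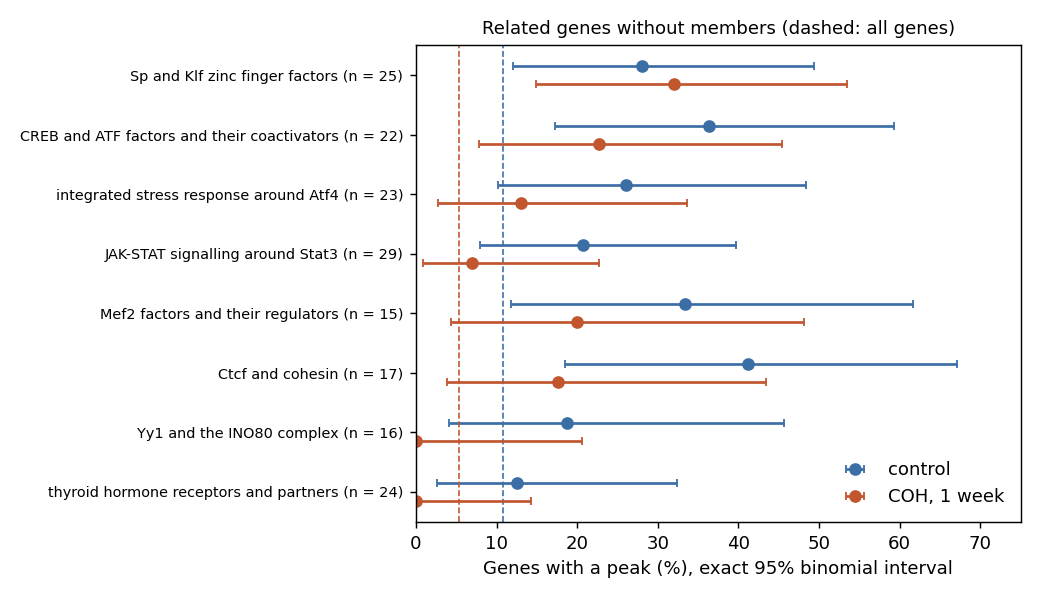
Percentage of related genes, without the 8 members, that had a peak in control (blue) and in COH (orange), for each of 8 lists with its number of genes, with exact 95% binomial intervals; dashed lines mark 10.8% and 5.38% of all protein-coding genes. The intervals of the 2 retinas overlap in each list, and Sp and Klf factors are the only list with the higher share in COH.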

How the data were processed

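CUT&Tag libraries of control and COH retina, 1 each, were amplified with 15 cycles, per the labels. The submitters' processing notes name cutadapt 1.9.1, Bowtie2 and mm9, with no role or order; the peak caller is not given in the sources used here, nor are its background library and the handling of duplicates. The pileup signal, the fold (a ratio), -log10 p and -log10 q were deposited by the authors per peak; the headings of the last 2 held spreadsheet errors and were read from place and values. Positions, annotation and genes (other values) are the authors', per the file headers, and the deposited length is 1 bp above the span from start to end. An implied background was computed as (pileup + 1) / fold - 1; with it the Poisson tail above the pileup matched the deposited -log10 p within 0.01 for 99.3% of control and 98.8% of COH peaks. The number of reads is unknown, and PCR fragments without molecular identifiers are not independent, so intervals cover counting error only.

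Peaks overlapped if they shared at least 1 bp. No test was made with 1 library per group. Ratio intervals are exact and conditional on the summed pileups. Symbols were matched to a RefSeq table of GRCm38.p6 by name or unique synonym. Related genes were named up to 6 per list, promoter peaks and high folds first. Klf12 and Klf13 were named besides, so that all Sp and Klf genes in both lists are given. Members, lists and 12 motifs were chosen with earlier results of these data known. Motifs were matched on both strands, overlaps kept. Overlap and motif steps were tested on simulated data. Tools were Python 3.11.15, pandas 2.3.3 and SciPy 1.17.1.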

Additional observations from a re-analysis of the deposited data

How the results depend on the processing

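The lists hold called peaks only, so absence from a list is not absence of signal, and a pileup of 14 to 36 fragments leaves wide intervals. With only peaks at or above the median fold of their list, 5 members kept a control peak, 5 a COH peak, 3 a peak in both (Ctcf, Stat3 and Yy1) and 3 overlapping peaks; fewer peaks enter by construction. With the control list reduced to its 1711 strongest peaks by fold, 5 members kept a control peak, 5 a peak in both and 5 overlapping peaks, without Atf4, Mef2a and Sp1. With a -log10 q of at least 5, 5 members had a peak in both and 5 overlapping peaks, without Creb1, Mef2a and Thrb. The control count was then 7 and the COH count 6. The share of other genes kept under these stricter settings is not given here, so the counts cannot be set against the whole lists. Within 1000 bp of the TSS, and with peaks up to 1000 bp apart, all 8 stayed, and a reciprocal overlap of 50% left 7, without Thrb. The count of members with a higher COH value was 4 by pileup and 6 by pileup over the median ratio, by fold and by rank of fold within each list. No paired analysis was possible because each group has 1 library and no test was made.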
